A study of Mus musculus with 2 samples.

Results

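The hedgehog pathway was read here through 9 genes: the ligand genes Ihh and Dhh, the receptor gene Ptch1, the ligand-binding antagonist gene Hhip, the signal transducer gene Smo, the inhibitor gene Sufu and the GLI transcription factor genes Gli1, Gli2 and Gli3. They were taken as the 22 probe sets of the array whose only gene symbol in the platform annotation is one of these names, out of 45037 probe sets that are not controls. The 9 genes stand among 18193 genes with such a probe set.

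The arrays compared whole ovaries of 2 genotypes, wild type and knockout for the progesterone receptor (PR, gene Pgr), a hormone-activated transcription factor that granulosa cells need for ovulation. Mice of both genotypes were on the C57BL/6 background, were 24 to 28 days old, and received 5 IU of PMSG, a gonadotropin that drives follicle growth, and 48 h later 5 IU of hCG, which stands in for the ovulatory surge of luteinizing hormone. Ovaries were taken 11 h after hCG. The RNA of 1 wild-type and of 1 PR knockout sample was hybridized, each to its own array. Pgr itself gives no check of the genotype labels: its 3 probe sets gave 36.5, 2.97 and 1.03 in the wild type and 42.8, 3.64 and 21.1 in the knockout, near or under the array medians and none lower in the knockout. The labels give neither the disrupted part of Pgr nor the number of animals behind each RNA sample. Without replicates, each value is a lone measurement, no difference could be tested against the spread between animals, and no p-value is given. RNA came from the whole organ, so fewer cells of a type and less RNA per cell cannot be told apart.

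Hedgehog ligands bind PTCH1 on the receiving cell, which then stops holding back SMO; the signal reaches the GLI factors, which SUFU otherwise restrains. GLI1 activates target genes, GLI2 is mainly an activator and GLI3 mainly a repressor, and Ptch1, Gli1 and Hhip are themselves textbook targets, of which PTCH1 and HHIP bind ligand and so dampen the pathway. In the ovary, granulosa cells of growing follicles make IHH and DHH, and the surrounding theca and stromal cells respond. In the uterus, Ihh is a known target of the progesterone receptor in the epithelium.

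All 9 genes were measured, which means that the brightest probe set of each reached the median signal of its array (36.2 for the wild type, 37.95 for the knockout, called the floor below) in at least 1 genotype. Of their 22 probe sets, 15 reached the floor on both arrays, 1 on the knockout array only, and 6 on neither. Ptch1 and Hhip, both target genes and both ligand-binding inhibitors, differed most between the genotypes and in opposite directions. Ptch1 was 1.97-fold higher and Hhip 2.57-fold lower in the knockout. By their brightest probe sets, 6 of the other 7 genes differed by less than 1.20-fold, and Gli1 was too dim for more than a lower bound.

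**Figure D1:**
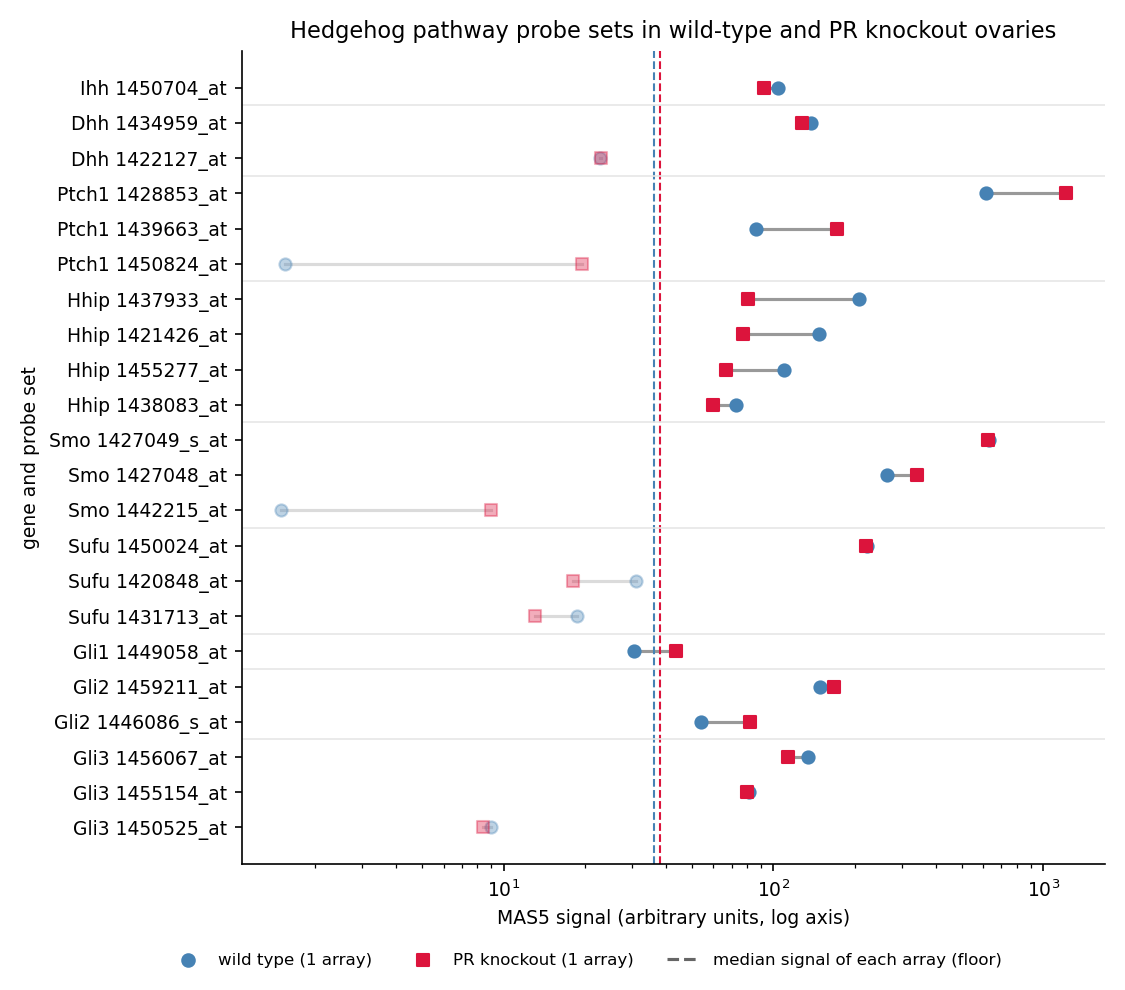
MAS5 signal (arbitrary units, log axis) of each of the 22 probe sets in the wild-type ovary (blue circles) and the PR knockout ovary (red squares), with the median signal of each array as a dashed line and probe sets under it on both arrays drawn faint. Both measured Ptch1 probe sets lie to the right in the knockout, and all 4 Hhip probe sets lie to the left.

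Ihh, which encodes the ligand that uterine PR induces, was read by 1 probe set (1450704_at). The wild-type ovary gave a signal of 104 and the knockout ovary 92.5, a log2 difference (knockout minus wild type, as throughout) of -0.17. Dhh, the other granulosa cell ligand gene, gave 137 and 128 in its brightest probe set (1434959_at), a log2 difference of -0.10. Both ligand genes were thus slightly lower in the knockout, by less than the spread between probe sets of the same gene. That spread was 0.25 (SD of the log2 difference within genes, over 4771 genes with several probe sets at the floor or above on both arrays). It leaves out the spread between animals. The other Dhh probe set, designed on the RefSeq transcript, was under the floor on both arrays at 22.7 and 23.1.

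Ptch1, the receptor gene, was at 615 in the wild-type ovary and at 1209 in the knockout ovary by its brightest probe set (1428853_at), a log2 difference of 0.97. A dimmer probe set (1439663_at) gave 86.0 and 172, a log2 difference of 1.0. These probe sets, which lie far apart in brightness, thus gave nearly the same ratio, with a mean log2 difference of 0.99 ± 0.018 (SD, n = 2 probe sets, which are not replicates of the animals). The third Ptch1 probe set (1450824_at), the only one designed on the RefSeq transcript, was under the floor on both arrays. It gave 1.55 and 19.5, and no fold is read from it. Of 11316 measured genes, 139 were at least as high in the knockout relative to the wild type as Ptch1, or 1.23%.

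Hhip encodes a membrane protein that binds hedgehog ligands and keeps them from PTCH1. Its 4 probe sets were at the floor or above on both arrays. The brightest (1437933_at) gave 208 in the wild-type ovary against 80.8 in the knockout, a log2 difference of -1.36. The probe set designed on the RefSeq transcript (1421426_at) gave 148 and 77.0, a log2 difference of -0.94. A further probe set (1455277_at) gave 110 and 66.9, or -0.71 on the log2 scale, and the dimmest (1438083_at) gave 72.6 and 59.7, or -0.28. All 4 were lower in the knockout, but by unequal amounts, with a mean log2 difference of -0.82 ± 0.45 (SD, n = 4 probe sets). The size of the Hhip difference therefore depends on the probe set that is read, from 2.57-fold to 1.22-fold lower. By the brightest probe set, 101 of the 11316 measured genes (0.893%) were at least as low.

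The Ptch1 and Hhip differences can be set against each other within the arrays, where any single scaling factor cancels. By the brightest probe sets the 2 genes lay apart by 2.34 on the log2 scale, or 5.05-fold. Over the 8 pairings of a measured Ptch1 with an Hhip probe set, this distance ran from 1.26 to 2.36. Ptch1 was on the higher side in every pairing, which the signs of the single differences already fix. The pairings reuse the same probe sets of the 2 genes that differed most, and they add no further support.

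**Figure D2:**
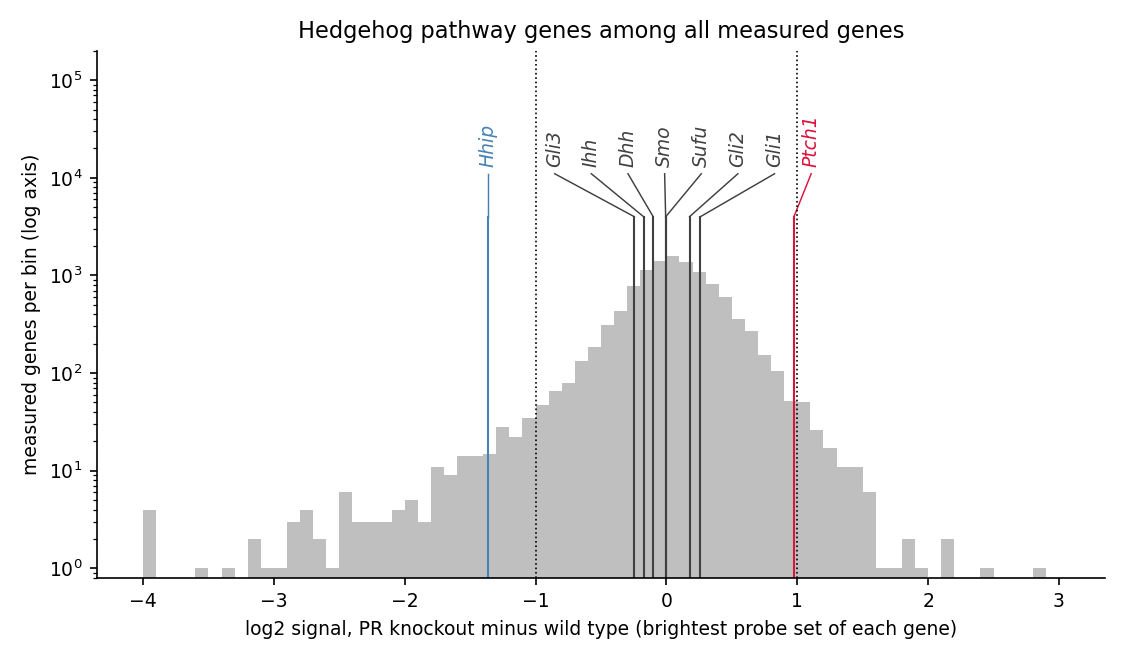
Number of measured genes (log axis) in bins of 0.1 of the log2 difference between the PR knockout and the wild-type ovary, with the 9 hedgehog genes as lines, the dotted lines at 2-fold, and genes lower than -4 gathered in the first bin. Hhip at -1.36 and Ptch1 at 0.97 lie in opposite tails, and the other genes lie between -0.25 and 0.26.

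Smo, which encodes the transducer that PTCH1 holds back, gave 629 and 626 in its brightest probe set (1427049_s_at), a log2 difference of -0.0058. Its next probe set (1427048_at) gave 264 and 340, or 0.36, so the probe sets of Smo, designed on the same expressed sequence, did not share a direction. The first of them has a suffix that marks probes able to match several transcripts. The third Smo probe set was under the floor on both arrays. Sufu, which encodes the cytoplasmic restraint on GLI factors, gave 221 on both arrays in its brightest probe set (1450024_at), a log2 difference of -0.0047, and its other probe sets were under the floor in both genotypes.

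Gli1, often used as a readout of pathway activity, was close to background in both ovaries. In its only probe set (1449058_at) the wild-type signal, 30.6, was under the floor and the knockout signal, 43.4, just over it. Set to the floor, the wild type gives a log2 difference of 0.26, at least 1.20-fold higher in the knockout for the signals as deposited. Without the loess trend, this bound was 0.17, or 1.13-fold. Gli1 counts as measured through the knockout array alone. Whether Gli1 followed Ptch1 or Hhip was not detectable at these signals.

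Gli2 and Gli3 encode the factors that act first on the signal. Gli2 gave 149 (wild type) and 168 (knockout) in its brightest probe set (1459211_at), a log2 difference of 0.18, and 54.1 and 81.7 in the other (1446086_s_at), or 0.59. Both were higher in the knockout. Both were designed on the same expressed sequence, so they are not independent readings. Gli3 gave 134 and 113 in its brightest probe set (1456067_at), a log2 difference of -0.25, and 81.0 and 79.8 in the next (1455154_at), or -0.022. Both were lower in the knockout, the second by almost nothing. The RefSeq-designed Gli3 probe set was under the floor on both arrays.

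As a group, the hedgehog genes were not shifted in one direction. Of the 9 genes, 1 (Hhip) was lower by 1.5-fold or more in the knockout and 1 (Ptch1) higher by as much, where 4.75% and 6.54% of all measured genes were. Median centring turned these background shares to 5.92% lower and 4.78% higher, and the removal of the loess trend to 5.97% and 4.53%, with the members' counts as before. At 2-fold, 1 was lower and 0 were higher, against 1.72% and 1.15% of all measured genes. By any amount, 6 were lower and 3 higher, where 42.2% of all measured genes were lower and 57.7% higher. Among the 6, Smo and Sufu were at -0.0058 and -0.0047, or almost 0. The background share by any amount depends on the scaling too: 48.2% of all measured genes were higher with median centring and 51.0% without the loess trend. Their median log2 difference was -0.0058, beside 0.06 over all measured genes. With 9 genes, these counts say only that the differences lay in Ptch1 and Hhip. No test was possible on 1 array per genotype.

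Promoter sequences of the Ptch1 and Hhip are shown because both genes are targets of GLI factors and differed in opposite directions. The RefSeq promoter table (GRCm38.p6) held 8 of the 9 members, all but Gli1, each with 1 start site. The 250 bases before the start are printed 5′ to 3′ on the gene's strand, at chr13:63565736-63565985 (minus strand) for Ptch1 and at chr8:80058009-80058258 (minus strand) for Hhip, with CCACCC or its reverse GGGTGG, the core of the GLI consensus, in capitals.
Ptch1: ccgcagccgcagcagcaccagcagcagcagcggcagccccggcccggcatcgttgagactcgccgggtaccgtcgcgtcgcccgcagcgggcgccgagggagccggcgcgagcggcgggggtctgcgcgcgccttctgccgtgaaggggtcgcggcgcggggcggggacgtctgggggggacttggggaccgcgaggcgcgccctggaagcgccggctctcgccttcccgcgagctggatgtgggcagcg
Hhip: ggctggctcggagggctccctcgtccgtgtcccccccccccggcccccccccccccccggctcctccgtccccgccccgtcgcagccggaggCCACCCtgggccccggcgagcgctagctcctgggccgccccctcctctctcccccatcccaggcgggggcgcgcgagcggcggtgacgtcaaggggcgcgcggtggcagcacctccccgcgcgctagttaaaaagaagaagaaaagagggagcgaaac
The Hhip window held CCACCC 158 to 153 bases before the start, and the Ptch1 window held it on neither strand. The core was found, on either strand, in 6 of the 8 members' windows (Ihh, Dhh, Hhip, Smo, Gli2 and Gli3) and in 28.1% of 32851 promoters of the same length. The full GLI consensus GACCACCCA, which contains the core, was in none of the 8 windows and in 0.225% of all promoters. ACANNNTGT, the palindrome core that the progesterone and glucocorticoid receptors bind, was in none of the 8 windows and in 5.84% of all promoters. These are matches of letters within 250 bases, and sites farther away were not searched. Both windows were rich in G and C, at 78.4% for Ptch1 and 76.0% for Hhip, beside a median of 52.4% over all promoters. The other windows with the core held from 59.6% (Dhh) to 72.8% (Gli3). The share of 28.1% thus comes from promoters of mostly lower G and C content, and no enrichment of the core is read from it. The Ptch1 window held 41 CG pairs and the Hhip window 28, where the median promoter held 6.

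Genes around the members were described with 6 further lists that hold 110 genes. A probe set with a lone gene symbol was found for 104 of them, and 90 passed the floor. Of these 90, the knockout had 4 at 1.5-fold lower or beyond and 6 at 1.5-fold higher or beyond, and 0 differed by 2-fold in either direction. Over all measured genes the shares at 1.5-fold were 4.75% lower and 6.54% higher, so the counts of these lists are near the background. Their median log2 difference was 0.16.

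Ligand production and release was read by 3 measured genes of 7, with a median log2 difference of 0.25. It turned to -0.28 without a floor, over all 7 genes. When probe sets able to match several transcripts were dropped, it was -0.25 over 2 genes. Shh, the ligand gene that is not a member here, was under the floor on both arrays, at 21.1 and 25.95. Scube2, whose product helps release lipid-modified ligand from the cell, was 1.95-fold higher in the knockout at 72.8 and 142, in a probe set that can match several transcripts. Hhat, the acyltransferase gene for ligand palmitoylation, was 1.69-fold lower at 66.0 and 39.1, where the knockout signal was close to the floor. Disp1, whose product exports the ligand, was 1.19-fold higher.

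Of the receptors and co-receptors, 6 of 8 were measured and their median log2 difference was -0.14. The co-receptor genes Gas1, Cdon and Boc differed little: Gas1 gave 1277 and 1190, a log2 difference of -0.10. Cdon gave 157 and 180, or 0.20, and Boc gave 141 and 114, or -0.30. The heparan sulfate proteoglycan gene Gpc4 was 1.71-fold lower at 2143 and 1252, and its other measured probe set gave -0.36. Gpc6, of the same family, was 1.19-fold higher at 122 and 145, and its 4 probe sets spread from -0.26 to 0.25 in log2 difference.

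Intracellular regulators, 26 measured of 29, had a median log2 difference of 0.032, which turned to -0.037 with median centring. At 1.5-fold or more, 2 were lower and 1 was higher, near the shares of 4.75% and 6.54% over all measured genes, and 0 were higher after each of the 3 rescalings. Kif7, the ciliary kinesin gene that organizes GLI processing, gave 89.0 and 96.4, a log2 difference of 0.12. The kinase gene Ulk3 was at least 1.58-fold lower, since its knockout signal of 34.3 was under the floor. The kinase gene Dyrk2, whose product can phosphorylate GLI2, was 1.53-fold lower at 845 and 552. Its 3 measured probe sets ran from -0.61, the value read here, to -0.20 in log2 difference. Dzip1, a cilium basal body gene, was 1.55-fold higher, while a dimmer probe set had a log2 difference of 0.14, and Evc, which encodes a partner of SMO in the cilium, was 1.34-fold higher.

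Genes of transport in the primary cilium, the organelle through which vertebrate hedgehog signals pass, were mostly higher in the knockout by small amounts. Of 33 measured genes, 31 were higher and 2 lower, where 57.7% of all measured genes were higher, and the median log2 difference was 0.33 beside 0.06. The intraflagellar transport genes Ift88 (57.5 and 100.3, 1.74-fold) and Ift52 (156 and 257, 1.65-fold) were the 2 genes at least 1.5-fold higher. The centriole gene Ofd1 was 1.43-fold higher. The Bardet-Biedl gene Bbs4 was 1.48-fold higher in a probe set able to match several transcripts, and its other measured probe set had a log2 difference of 0.16. After each of the 3 rescalings 30 of the 33 were higher, and the median was 0.26 with median centring, 0.24 with quantile normalization and 0.22 without the trend of the difference with signal. Dimmer genes leaned towards the knockout on these arrays, with a median log2 difference of 0.11 over the dimmest of 10 equal groups of genes and of -0.05 over the brightest. The part of this trend in the cilium list was measured only through the last rescaling. Markers of motile cilia and oviduct were near background: 6 of 7, Foxj1 and Ovgp1 among them, were under the floor on both arrays, and Rsph1 gave 27.7 and 41.96.

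Other reported hedgehog target genes lay on both sides of 0, with smaller differences than Ptch1 and Hhip. Of 15 measured of 20, 10 were higher and 5 lower, where 57.7% of all measured genes were higher. At 1.5-fold, 2 were higher and 0 lower, against 1 higher and 1 lower with median centring or quantile normalization and 1 higher and 2 lower without the loess trend. As the mean over probe sets, 8 were higher and 7 lower. The median log2 difference was 0.12. Grem1, which encodes a secreted BMP antagonist, was 1.81-fold higher at 54.6 and 98.7, in a probe set that can match several transcripts. Without such probe sets, 1 of the 14 target genes then measured was at least 1.5-fold higher. Mycn, a growth-promoting transcription factor gene, gave 158 and 240 in its brightest probe set, 1.52-fold higher, but its 3 probe sets spread from -0.43 to 0.77 on the log2 scale. Foxm1, a mitotic transcription factor gene, was 1.49-fold lower at 91.1 and 60.96 while its probe sets spread from -0.58 to 0.31, and Snai1, a repressor of epithelial genes, 1.40-fold lower.

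The genes that act with Ihh in the uterus differed little in the ovary. Of 7 measured of 11, 4 were lower and 3 higher, where 42.2% of all measured genes were lower. By 1.5-fold 0 differed, and the median log2 difference was -0.18. It turned to 0.015 with the 70th-percentile floor (6 genes) or with no floor (10 genes), and to 0.06 with the offset (10 genes). When probe sets able to match several transcripts were dropped, it was 0.21 over 5 genes. Bmp2 was 1.47-fold and Wnt4 1.23-fold higher, both signalling ligand genes. Gata2, a transcription factor gene upstream of uterine PR, was 1.41-fold lower, and Fkbp5, a co-chaperone gene that steroid receptors induce, 1.20-fold lower at 3314 and 2751.

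**Figure D3:**
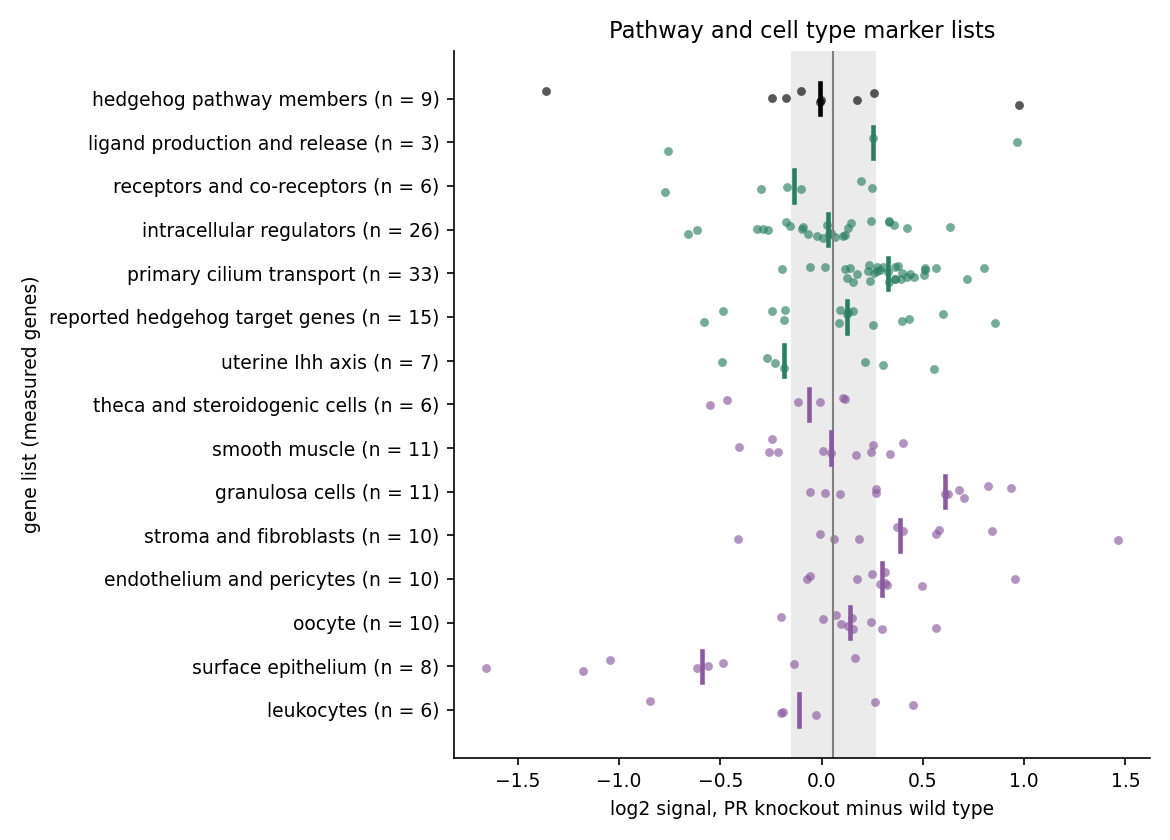
Log2 difference between the PR knockout and the wild-type ovary for each measured gene (points) of the hedgehog members (black), the pathway lists (green) and the cell type marker lists with at least 3 measured genes (purple), with vertical bars at list medians. The grey band and line are the quartiles (-0.14 and 0.27) and the median (0.06) of all measured genes, and the cilium, granulosa cell and stroma lists lie to the right of that line and the surface epithelium list to its left.

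Cell type markers differed between the ovaries as well. Granulosa cell markers, of the cells that make the ligands, had a median log2 difference of 0.61 with 10 of 11 measured genes higher, where 57.7% of all measured genes were. At 1.5-fold 6 of the 11 were higher (4 with median centring), where 6.54% of all measured genes were. Their brightest genes, Inha and Gja1, gave -0.06 and 0.018, while Esr2 was 1.91-fold higher. The 0.018 came from a probe set able to match several transcripts and was the lowest of 6 measured Gja1 probe sets, which reached 1.0. The signals of the list summed to 22735 (wild type) and 25380 (knockout). Ihh and Dhh lay slightly on the lower side, while most granulosa markers lay on the higher side.

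Among cells that can respond to the ligands, theca and steroidogenic cell markers had a median of -0.06 over 6 genes (0.027 after quantile normalization). Of the 6, 4 were lower and 2 higher, where 42.2% of all measured genes were lower. Hsd3b1 gave 0.11, Star -0.55 and Cyp17a1 -0.47, and Cyp11a1 gave -0.12 in its brighter probe set and 0.26 in the other. Smooth muscle markers had a median of 0.05 over 11 genes (-0.020 after median centring), with Acta2 at 0.0074, Tagln at -0.24 and Actg2 at -0.41. Of the 11, 7 were higher and 4 lower, near the 57.7% of all measured genes that were higher. Stroma and fibroblast markers had a median of 0.39 over 10 genes, with 8 higher (57.7% of all measured genes were), and a summed signal of 18303 and 21257. Of these, Tcf21 was 2.76-fold higher, while Col3a1 and Col1a2 gave -0.0099 and 0.06. Pdgfra was lower at 1368 and 1027, and its 3 measured probe sets ran from -0.41 to -0.25. Endothelial and pericyte markers had a median of 0.30 over 10 genes, and signals summing to 3005 and 3603. Of the 10, 8 were higher and 2 lower, where 57.7% of all measured genes were higher. Pdgfrb gave 0.32, Tie1 0.95 and Rgs5 0.17, while the 4 probe sets of Rgs5 spread from -0.67 to 0.64. The endothelial genes Cdh5 and Kdr were the 2 slightly lower, at -0.06 and -0.07. The Ptch1 difference lay on the same side as most stroma markers and the Hhip difference on the opposite side. The part of cell makeup in either was not tested.

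Surface epithelium markers lay on the same side as Hhip, with 7 of 8 measured genes lower (42.2% of all measured genes were) and a median log2 difference of -0.59. Their signals summed to 1495 (wild type) and 911 (knockout), with Krt7 at 141 and 44.7, Krt8 at 366 and 162 and Upk3b at 220 and 200. The part of these cells in the Hhip difference was not tested. Among oocyte markers Gdf9 gave 775 and 859. In this list 9 of 10 genes were higher in the knockout by small amounts, where 57.7% of all measured genes were higher. The oocyte list had a median log2 difference of 0.14 over 10 genes, with Oosp1 at 0.0063 and Nlrp5 at 0.56. Leukocyte markers had a median of -0.11 over 6 genes (0.21 over the 2 genes that passed the 70th-percentile floor), with Csf1r at 0.45, Lyz2 at -0.027 and Cd14 at -0.85. Schwann cells, a known source of DHH in nerves, left little signal: of 3 markers with a probe set, S100b alone reached the floor, in the knockout, at 24.7 and 38.4.

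How far each member's difference depends on the processing was followed over 8 alternatives. Ptch1 stayed between 0.91 and 1.0 on the log2 scale. Hhip stayed lower in every setting, from -1.47 without the trend with signal to -0.70 with the floor at the 70th percentile of each array, where its knockout signal was replaced by that floor of 127.6. Ihh, Dhh, Sufu and Gli3 were lower, and Gli1 and Gli2 higher, in every setting in which they were measured, all by small amounts. With the higher floor Ihh and Gli1 were no longer measured. Smo was lower in 6 settings and higher in 3.

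**Figure D4:**
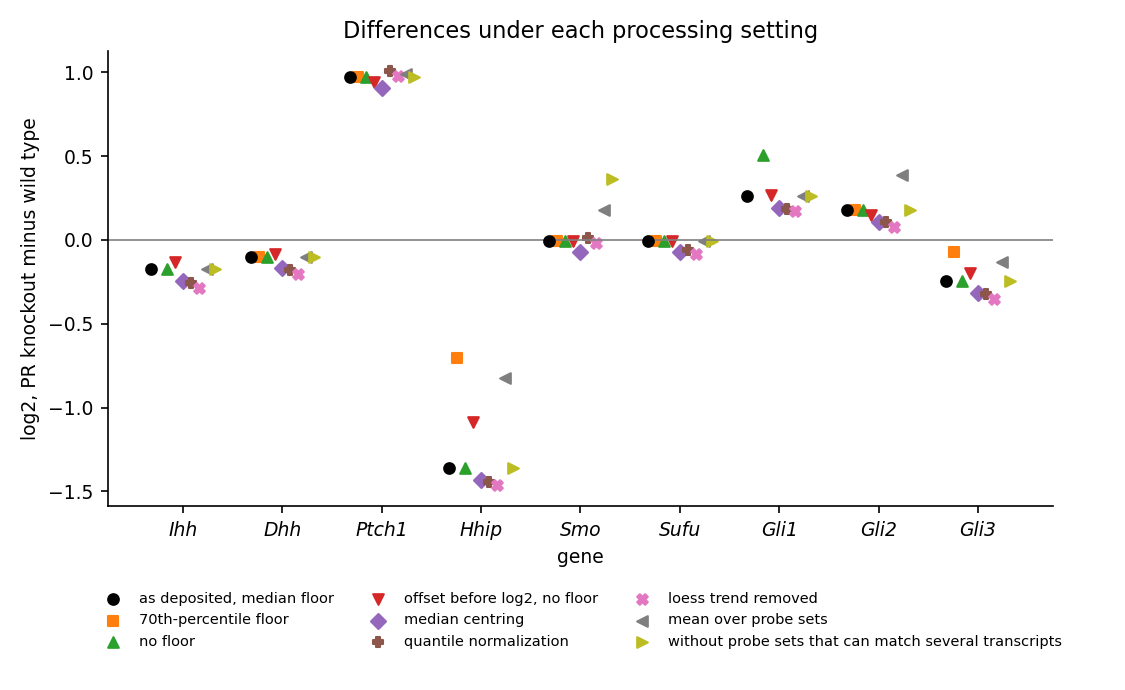
Log2 difference between the PR knockout and the wild-type ovary for each hedgehog gene (x axis) under the reported setting (black circles) and each alternative (other symbols). Ptch1 lies between 0.91 and 1.0 and Hhip between -1.47 and -0.70 in all settings, and the other genes lie within 0.51 of 0.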

How the data were processed

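RNA from 1 wild-type and 1 PR knockout ovary sample was read on 2 Affymetrix mouse genome arrays, from 100 ng of total RNA labelled by a kit that primes at the 3′ end, per the labels' protocols. The deposited values are linear intensities per probe set, computed by the authors with MAS5 in Affymetrix Expression Console version 1, per the submitters' processing notes. The mean after trimming 2% at each end was 150.0 on both arrays, which a scaling factor per array gives. MAS5 subtracts mismatch signals, which makes low signals noisy, and the number of arrays limits the precision.

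The deposited signals were converted to log2 without rescaling (Python 3.11.15, pandas 2.3.3). The 64 control probe sets were left out. Of the other 45037, 34945 carried 1 gene symbol, 932 several and 9160 none; RefSeq (GRCm38.p6) held the gene IDs of 34741, with 0 symbols changed. Each gene was read by its brightest probe set, and signals under the array's median were set to it. A gene is measured if it reaches that floor on at least 1 array. A fold against a floored signal is written as "at least". Levels are not compared between probe sets.

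The members and the 16 gene lists were chosen with earlier results of these data known. Of the lists' 199 genes, 187 were found under a lone symbol and 164 passed the floor. Named were all members, the 4 largest differences of each pathway list with Shh, Gas1, Cdon, Boc and Kif7, and from each marker list the 2 brightest genes, the largest difference and Gdf9. Foxj1, Ovgp1, Cyp17a1, Cdh5, Kdr and Pdgfra were added after their values were seen. The calculation was tested on simulated data, with planted differences larger than any member's and only in genes brighter than Hhip. The simulated noise was smaller than the spread between probe sets of a gene. That test therefore does not cover dim genes or differences as small as the members'. Alternatives were a floor at the 70th percentile, no floor, an offset of 32, median centring, quantile normalization, removal of the loess trend (statsmodels 0.14.6), the mean over probe sets, leaving out probe sets that can match several transcripts, and 2-fold in place of 1.5-fold.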

Additional observations from a re-analysis of the deposited data

How the results depend on the processing

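The median of the 9 members and the counts of members at least 1.5-fold apart were recomputed under each alternative. The median log2 difference lay between -0.09 and -0.0047. The counts of 1 lower and 1 higher member held under all 8 changes of floor, offset, scaling and probe set. At 2-fold the number of members higher in the knockout was 0 in place of 1, since Ptch1 lies at 1.97-fold, and the number lower stayed at 1.

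Of 96 values under alternatives, 91 moved by less than 0.25 on the log2 scale, the spread between probe sets of a gene, or, for counts, stayed within 1.5-fold of the reported count, and 5 moved by more. Besides the 2-fold count, these were Hhip at -0.70 with the 70th-percentile floor, -1.09 with the offset and -0.82 as the mean over its probe sets, and Smo at 0.36 without the probe sets that can match several transcripts. No member at least 1.5-fold apart changed direction in any setting. No paired analysis was possible because each genotype has 1 array. Leaving out a replicate was likewise not possible. Signal over background limits Gli1, whose direction rests on a knockout signal just over the floor.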
